A study of Homo sapiens with 6 samples.

Results

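Semaphorins, plexins and neuropilins form a guidance system that was followed here in PC3 cells with and without added GCNT1. The genes were chosen as a list of 10 symbols, SEMA3A, SEMA3C, SEMA3E, SEMA4B and SEMA5A for the ligands, PLXNA1, PLXNB2 and PLXND1 for the plexins, and NRP1 and NRP2 for the neuropilins. All 10 had a row among the 12703 genes of the count table. PC3 is an established human prostate cancer line from a bone metastasis. The control group was 3 PC3 lines stably transduced with Lenti-ORF negative control particles, and the GCNT1 OE group was 3 PC3 lines stably transduced with lentiviral particles that carry GCNT1, the enzyme that makes the core 2 branch of O-glycans. Both groups are therefore transduced and selected lines of 1 parental line. The sources do not say whether each line came from a transduction of its own, so p values measure the spread between these lines.

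Semaphorins are secreted or membrane-bound ligands that share the sema domain. Plexins are their main receptors and also carry a sema domain, with a cytoplasmic domain that acts on small GTPases of the Ras and Rap families. Most secreted class 3 semaphorins cannot bind a plexin alone and need a neuropilin as co-receptor, whereas SEMA3E binds PLXND1 directly. Neuropilins also bind VEGF and work with the VEGF receptors, so that semaphorins and VEGF share a receptor. The system was first known from axon guidance and blood vessel growth, and in tumour cells it is studied for its part in migration, adhesion and invasion.

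The deposited counts summed to between 11392213 and 13825704 per library, at which 3 counts, the floor used here, stand for 0.217 to 0.263 CPM, the count relative to the scaled library size. The transcript of GCNT1 itself had 9, 13 and 8 counts in the controls against 13, 16 and 35 in the GCNT1 OE libraries (log2 fold change 0.98, SE 0.37, edgeR adjusted p = 0.0362). This call was lost without control replicate 1 (adjusted p = 0.0920), without control replicate 3 (adjusted p = 0.0944) and without GCNT1 OE replicate 3 (log2 fold change 0.49, adjusted p = 0.269) in the same edgeR test, and with DESeq2 (adjusted p = 0.0821). In the GENCODE annotation PRUNE2 overlaps GCNT1 on the other strand. The authors also checked GCNT1 in their overexpressing PC3 cells by real-time PCR, sandwich ELISA and immunocytochemistry, which are not part of these counts. The epithelial markers KRT8, KRT18, EPCAM and CDH1 all had rows and summed to 471 to 498 CPM in controls and 411 to 463 CPM with GCNT1. Nearly all of this sum is keratin, while CDH1 (E-cadherin) fell from 56, 43 and 34 counts to 15, 14 and 14 (log2 fold change -1.71, edgeR adjusted p = 4.74e-05). EPCAM did not pass the test (0.09, edgeR adjusted p = 0.645), nor did KRT8 (-0.14, edgeR adjusted p = 0.0829). KRT18 fell by less than CDH1 (-0.18, edgeR adjusted p = 0.00504). The fibroblast list had 1 row of 5 (COL1A1, 13.7 to 15.7 CPM in controls and 8.23 to 8.86 with GCNT1), the neuronal list 1 of 4 (MAP2, 6.94 to 7.31 and 3.02 to 3.76 CPM) and the leukocyte list 1 of 3 (CD68, 83.4 to 94.4 and 80.0 to 89.5 CPM). Of 5 endothelial markers CDH5, TEK and VWF had no row, and PECAM1 and KDR summed to 148 to 166 CPM in controls and 47.7 to 63.4 CPM with GCNT1. The part of these shifts in the results below was not tested.

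Of the 10 members, 8 differed between the groups at an adjusted p under 0.05, 3 of them higher with GCNT1 (NRP1, NRP2 and PLXNA1) and 5 lower (SEMA5A, SEMA3E, SEMA3A, PLXNB2 and SEMA4B). Among all 12703 genes 28.3% passed this test with a higher level and 29.3% with a lower one, so a shift of some size was common in these cells. Only 1 member, SEMA5A, also passed the fold change limit of the study, 0.58 on the log2 scale, where 8.28% of all genes were called higher and 11.1% lower. The median size of the log2 fold change was 0.32 in the members and 0.26 over all genes. Thus 7 of the 8 changes were modest, between -0.53 and 0.49 on the log2 scale, and 1 was a near loss of the transcript. The members and the other genes of their families are shown in the plot of fold changes.

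**Figure D1:**
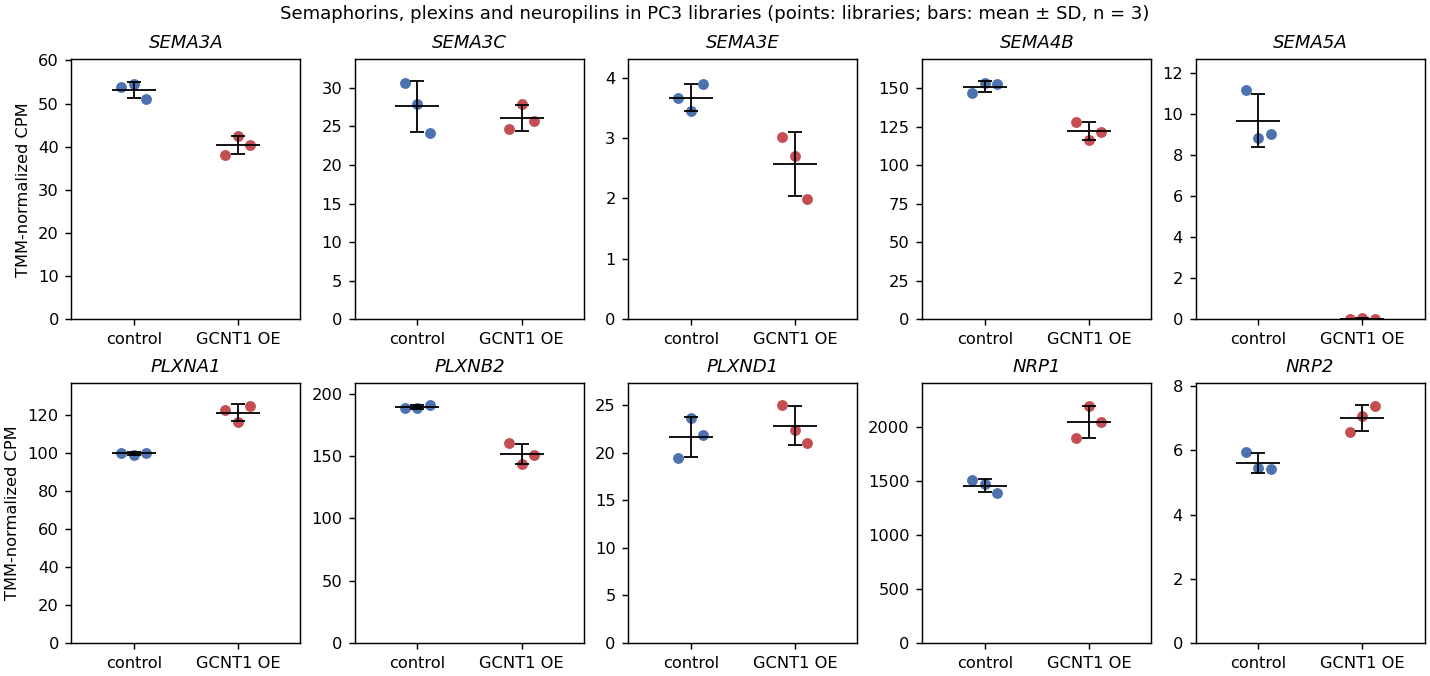
TMM-normalized CPM (vertical axis, from 0) of the 10 members in each library, with control libraries in blue and GCNT1 OE libraries in red, and bars for the mean ± SD (n = 3). The 3 GCNT1 OE libraries lie above all controls for NRP1, NRP2 and PLXNA1, below them for SEMA3A, SEMA3E, SEMA4B, SEMA5A and PLXNB2, and overlap them for SEMA3C and PLXND1. How common such separation is among all genes was not counted.

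SEMA5A showed the largest change of all members. It encodes a membrane-bound semaphorin with thrombospondin repeats, a class that binds proteoglycans and PLXNB3. SEMA5A (chromosome 5 of hg38, from 9035033 to 9546075, minus strand) was counted 141, 110 and 107 times in the controls and 0, 1 and 0 times with GCNT1. The groups are far apart, with 358 counts in all against 1. Scaled for library size this was a 383-fold difference, with an exact 95% binomial interval from 68.3 to 15160 that covers counting error only. In edgeR the log2 fold change was -8.11 (SE 0.39, edgeR adjusted p = 2.11e-09), a value that depends on the small count the program adds to a group near 0. In 12 alternatives that kept the gene, other than the test against a minimum fold, the fall stayed past the threshold, with log2 fold changes from -9.92 to -7.46. RNA of bulk cultures cannot tell fewer cells that express a gene from less RNA per cell.

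The 250 bases before the start of SEMA5A (GRCh38.p14, chr5:9546076-9546325, minus strand, from RefSeq) are shown because they also hold the start of SNHG18, a gene that was lost with it. Capitals mark the motif GGGCGG, known as the GC box, on either strand.

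SEMA5A: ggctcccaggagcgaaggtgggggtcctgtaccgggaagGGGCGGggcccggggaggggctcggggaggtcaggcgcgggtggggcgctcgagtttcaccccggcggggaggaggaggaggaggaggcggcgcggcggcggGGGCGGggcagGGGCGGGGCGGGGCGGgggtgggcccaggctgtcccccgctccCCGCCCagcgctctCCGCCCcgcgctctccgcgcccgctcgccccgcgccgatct

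This stretch held 33 CpG dinucleotides, more than 91.9% of the 35116 promoter windows of the same length in the table, and 7 matches to GGGCGG, of which some overlap. At least 1 match to GGGCGG was present in 42.6% of all windows. The E-box CACCTG was not in this window and was in 17.5% of all windows, and TATAAA was not in it and was in 10.7% of them. Both were searched on both strands, and a match describes letters and not a bound site. Promoter sequences were found for 8 of the 10 members and were missing for SEMA3A and NRP1.

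SNHG18, a long non-coding host of small nucleolar RNA, starts 125 bases from SEMA5A on the opposite strand (chromosome 5, from 9546200 to 9550298), so that its first part lies within the printed sequence. It was counted 66, 65 and 54 times in the controls and 0 times in each GCNT1 OE library, at least 21.8-fold lower against the floor of 3 counts per library (edgeR adjusted p = 6.86e-08). The 2 genes of this divergent pair were therefore both at or near 0 with GCNT1. CTNND2, which encodes a catenin and starts 2358371 bases further on, fell from 103, 119 and 92 counts to 2 in each library. Of the 50 analysed genes that flank SEMA5A, 25 on each side, all 50 had a lower level with GCNT1, 47 of them past the adjusted p, and their median log2 fold change was -1.03. Relative to that median SEMA5A still fell by 7.08 on the log2 scale. What the shared fall of this part of chromosome 5 contributed to SEMA5A was not tested. In the annotation SEMA5A-AS1 and other antisense RNA genes overlap SEMA5A, and so does an unnamed non-coding RNA gene on the same strand. The strand setting of the counting is not given in the sources used here.

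**Figure D2:**
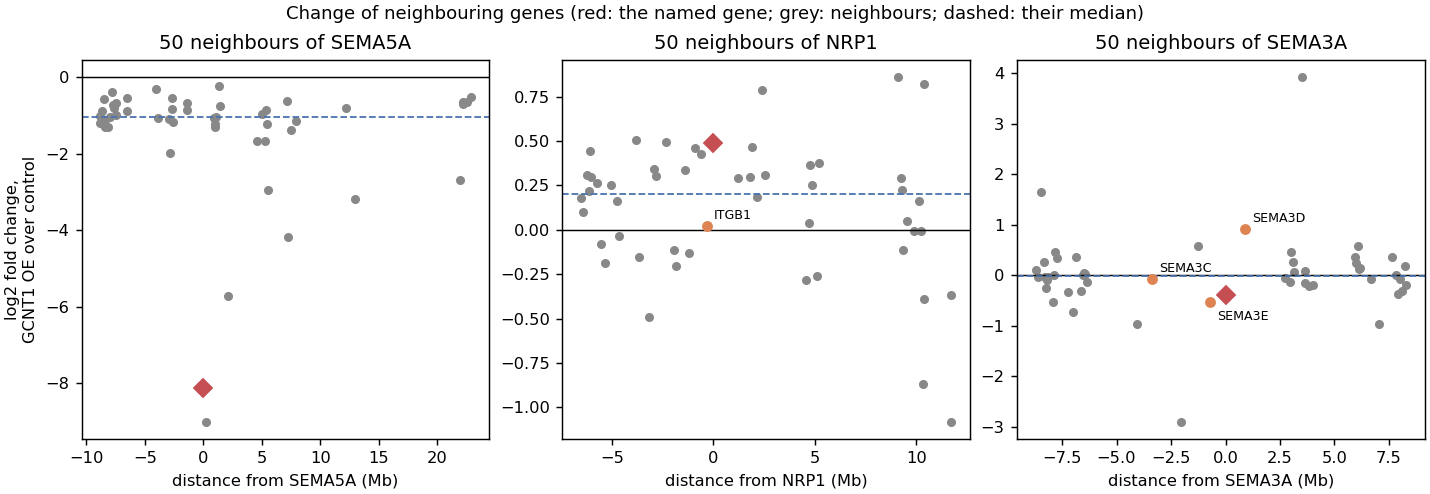
Log2 fold change (vertical axis, GCNT1 OE over control) of the 50 analysed genes that flank SEMA5A, NRP1 and SEMA3A, 25 on each side, against their distance in Mb, with the named gene in red and the median of the neighbours dashed. All neighbours of SEMA5A lie below 0 around a median of -1.03, those of NRP1 lie on both sides of a median of 0.20, and those of SEMA3A around -0.02.

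SEMA3A, SEMA3C and SEMA3E encode secreted class 3 ligands and lie close together on chromosome 7. SEMA3A, the classical repulsive ligand of NRP1 and the A-type plexins, lies from 83955777 to 84492725 on the minus strand. It measured 53.7, 54.6 and 51.0 CPM in the controls and 38.2, 42.4 and 40.4 CPM with GCNT1. All GCNT1 OE libraries were lower than all controls, with a log2 fold change of -0.40 (SE 0.06, edgeR adjusted p = 0.000151), which is 1.32-fold lower. The fall passed the same test in each of 13 alternatives, with log2 fold changes between -0.43 and -0.34. The median of its 50 flanking genes was -0.02 on the same scale.

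SEMA3E, the ligand that PLXND1 binds without a neuropilin, lies from 83363238 to 83649139 on the minus strand and was rarer. It measured 3.66, 3.45 and 3.89 CPM in the controls and 3.02, 2.69 and 1.99 CPM with GCNT1. These groups do not overlap, but they rest on 28 to 46 counts per library. The log2 fold change was -0.53 (SE 0.19, edgeR adjusted p = 0.0298). The pass at the adjusted p was lost without control replicate 1 (log2 fold change -0.52, adjusted p = 0.0641), control replicate 3 (-0.48, adjusted p = 0.0786) or GCNT1 OE replicate 3 (-0.36, adjusted p = 0.139) in edgeR, and with DESeq2 (-0.52, adjusted p = 0.115), while the direction stayed. Without GCNT1 OE replicate 1 the log2 fold change of SEMA3E was -0.65 and passed the fold limit too.

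SEMA3C, a ligand of both neuropilins (from 80742538 to 80922389, minus strand), measured 30.7, 28.0 and 24.1 CPM in the controls and 24.7, 28.0 and 25.7 CPM with GCNT1. The groups overlapped and the log2 fold change of -0.08 (95% interval -0.28 to 0.12, edgeR adjusted p = 0.484) did not pass the test. The interval leaves room for neither a rise nor a fall of the size of the fold limit. Close by, SEMA3D, which is not on the list and is called by the same rule below, rose while its neighbours SEMA3A and SEMA3E fell.

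SEMA4B, a membrane-bound class 4 semaphorin (chromosome 15, from 90184920 to 90229661, plus strand), was the most abundant semaphorin of the list. It measured 147, 153 and 153 CPM in the controls and 128, 117 and 121 CPM with GCNT1. The groups do not overlap, with a log2 fold change of -0.31 (SE 0.05, edgeR adjusted p = 0.000233). Its 50 flanking genes had a median of 0.28, so that SEMA4B fell by 0.59 on the log2 scale relative to them. This relative value has no test of its own.

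NRP1, the co-receptor of SEMA3A and of VEGF, was by far the most abundant member. NRP1 (chromosome 10, from 33177493 to 33334667, minus strand) was counted 18961, 18403 and 16436 times in the controls and 22010, 30119 and 28949 times with GCNT1. On the scale of TMM-normalized CPM this was 1458 ± 60.6 (SD, n = 3) and 2049 ± 145 (SD, n = 3). Each GCNT1 OE library was above each control, and the log2 fold change was 0.49 (SE 0.05, edgeR adjusted p = 5.00e-06), or 1.41-fold. The rise was past the adjusted p in each of 13 alternatives, with log2 fold changes from 0.45 to 0.55, and its 95% interval of 0.38 to 0.61 includes the fold limit. Of its 50 flanking genes 33 were above 0 and 17 below, with a median log2 fold change of 0.20, relative to which NRP1 rose by 0.29. ITGB1, the nearest of them and the partner of many integrin alpha chains, had a log2 fold change of 0.02 (edgeR adjusted p = 0.757). An unnamed antisense RNA gene overlaps NRP1 in the annotation.

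NRP2, the neuropilin that prefers SEMA3F and VEGFC (chromosome 2, from 205682501 to 205798131, plus strand), measured 5.96, 5.46 and 5.41 CPM in the controls and 6.57, 7.06 and 7.37 CPM with GCNT1. Its libraries also separate by group, with a log2 fold change of 0.32 (SE 0.12, edgeR adjusted p = 0.0404). That pass at the adjusted p was lost without control replicate 2 (adjusted p = 0.106), control replicate 3 (adjusted p = 0.0972), GCNT1 OE replicate 2 (adjusted p = 0.0819) or GCNT1 OE replicate 3 (adjusted p = 0.129) in edgeR, and with DESeq2 (adjusted p = 0.173). Per kb of exon, NRP1 stood 305-fold, 326-fold and 310-fold above NRP2 in the 3 controls and 349-fold, 375-fold and 336-fold with GCNT1. NRP2 thus made up 0.318% ± 0.0112 (SD, n = 3) of neuropilin transcripts per kb in controls and 0.283% ± 0.0155 (SD, n = 3) with GCNT1, so that the neuropilin of these cells was almost entirely NRP1 in both groups.

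PLXNA1, a signalling partner of the neuropilins (chromosome 3, from 126983115 to 127037389, plus strand), measured 100.2, 99.3 and 100.4 CPM in the controls and 123, 116 and 125 CPM with GCNT1. All 3 GCNT1 OE libraries were higher, with a log2 fold change of 0.28 (SE 0.05, edgeR adjusted p = 0.000422). It passed the adjusted p in each of 13 alternatives. For its 50 flanking genes the median was 0.16, which leaves 0.12 for PLXNA1 above them.

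PLXNB2, a receptor of class 4 semaphorins (chromosome 22, from 50274979 to 50307646, minus strand), moved the other way. It measured 189, 189 and 191 CPM in the controls and 160.4, 144 and 151 CPM with GCNT1. The groups do not overlap, with a log2 fold change of -0.32 (SE 0.05, edgeR adjusted p = 0.000138). Here the median of the 50 flanking genes, fewer of them on the side of the chromosome end, was -0.16, and PLXNB2 lay a further 0.16 on the log2 scale below it.

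PLXND1, the receptor of SEMA3E (chromosome 3, from 129555214 to 129606676, minus strand), measured 19.5, 23.6 and 21.8 CPM in the controls and 25.1, 22.4 and 21.1 CPM with GCNT1. The groups overlapped, and the log2 fold change of 0.07 (95% interval -0.13 to 0.28, edgeR adjusted p = 0.529) did not pass the test.

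Levels of different genes were compared per kb of exon in the controls. NRP1 stood at 127 CPM per kb, PLXNB2 at 26.1, SEMA4B at 21.6, PLXNA1 at 8.90, SEMA3A at 5.74, SEMA3C at 4.52 and PLXND1 at 2.26. The rare members were SEMA5A with 0.788 CPM per kb, SEMA3E with 0.434 ± 0.0259 (SD, n = 3) and NRP2 with 0.404 ± 0.0218 (SD, n = 3). The levels of SEMA3E and NRP2 were close and were not compared by a test. With the length of the longest transcript in place of all exons SEMA4B (39.9 CPM per kb) stood above PLXNB2 (29.6 CPM per kb), so the order of these genes depends on the length used.

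**Figure D3:**
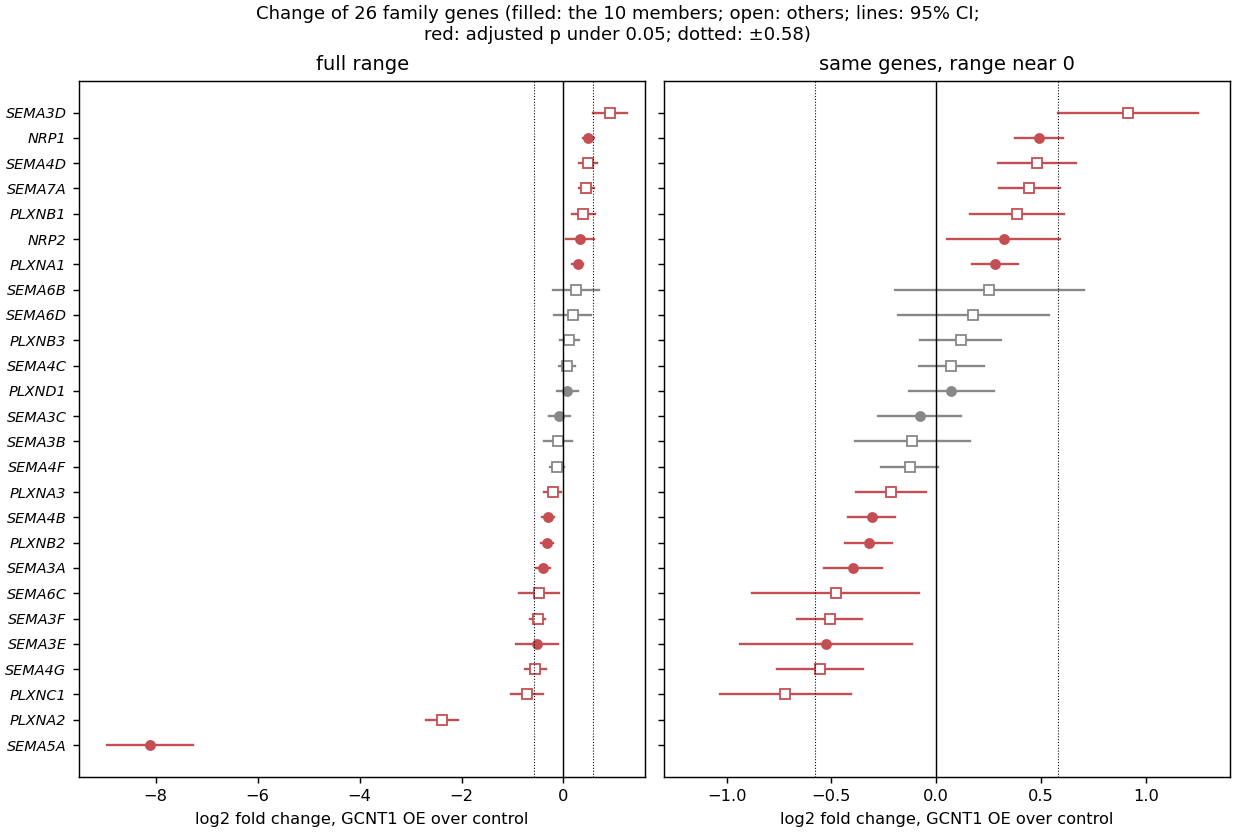
Log2 fold change (horizontal axis, GCNT1 OE over control) with its 95% interval for the 26 semaphorin, plexin and neuropilin genes analysed, over the full range on the left and near 0 on the right, with the 10 members filled, adjusted p under 0.05 in red and the fold limit dotted. Beyond the limit lie SEMA5A at -8.11, PLXNA2 at -2.38, PLXNC1 at -0.72 and SEMA3D at 0.92.

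The other genes of these families put the members in context. Of 21 further semaphorin and plexin genes 16 had a row, and SEMA3G, SEMA4A, SEMA5B, SEMA6A and PLXNA4 had none. In this group 4 genes were higher at an adjusted p under 0.05 and 6 were lower, where all genes gave 28.3% and 29.3%. Past the fold limit as well were SEMA3D, higher, and PLXNA2 and PLXNC1, lower, where all genes gave 8.28% and 11.1%. Their median log2 fold change was -0.02, against 0.00095 for all genes.

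PLXNA2, a second A-type plexin, had 10.2, 10.52 and 9.90 CPM in the controls and 1.99, 2.11 and 1.77 CPM with GCNT1, a 5.21-fold fall (log2 fold change -2.38, SE 0.14, edgeR adjusted p = 1.57e-08). It fell while PLXNA1 rose, and the median of its 50 flanking genes was 0.21. PLXNC1, the plexin that binds SEMA7A, had 5.96, 5.70 and 6.68 CPM in the controls and 3.98, 3.42 and 3.76 CPM with GCNT1 (log2 fold change -0.72, SE 0.14, edgeR adjusted p = 0.000827). SEMA7A itself, a lipid-anchored semaphorin, rose from 67.1 ± 4.39 to 91.4 ± 6.12 CPM (SD, n = 3 each, log2 fold change 0.44, edgeR adjusted p = 8.59e-05). The ligand SEMA7A and its plexin thus moved in opposite directions. The gene CEP83 overlaps PLXNC1 on the other strand.

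SEMA3D was the only semaphorin called higher. It measured 22.9, 18.5 and 14.4 CPM in the controls and 27.2, 39.7 and 37.9 CPM with GCNT1. The groups do not overlap, but the spread within each was wide, with a log2 fold change of 0.92 (SE 0.15, edgeR adjusted p = 0.000220). SEMA3F, a ligand that prefers NRP2, fell from 52.8 ± 4.35 to 37.1 ± 1.47 CPM (SD, n = 3 each, log2 fold change -0.51, edgeR adjusted p = 5.05e-05). SEMA4G also fell (log2 fold change -0.56, edgeR adjusted p = 0.000234), and SEMA4D (0.48, edgeR adjusted p = 0.000351) and its receptor PLXNB1 (0.38, edgeR adjusted p = 0.00644) both rose. Without control replicate 3 SEMA4G passed the fold limit, at -0.59.

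For the remaining 2 genes the pass at the adjusted p was lost when single libraries were left out. PLXNA3 kept a log2 fold change between -0.31 and -0.15 over all alternatives, and SEMA6C one between -0.65 and -0.26. PLXNA3 had a log2 fold change of -0.21 (edgeR adjusted p = 0.0300) that did not pass without control replicate 1 (adjusted p = 0.0509), control replicate 2 (adjusted p = 0.108), GCNT1 OE replicate 1 (adjusted p = 0.0823) or GCNT1 OE replicate 2 (adjusted p = 0.105) in edgeR. SEMA6C had -0.48 (edgeR adjusted p = 0.0397), and its adjusted p was 0.0804, 0.0536 and 0.107 without control replicates 1, 2 and 3 and 0.190 without GCNT1 OE replicate 3, where the log2 fold change was -0.26. DESeq2 gave an adjusted p of 0.0740 for SEMA6C. Without TMM factors edgeR's adjusted p was 0.101 for PLXNA3 and 0.0663 for SEMA6C. Without GCNT1 OE replicate 2 SEMA6C passed the fold limit, at -0.65. SEMA3B, SEMA4C, SEMA4F, SEMA6B, SEMA6D and PLXNB3 did not pass the test, with log2 fold changes from -0.13 for SEMA4F to 0.25 for SEMA6B.

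**Figure D4:**
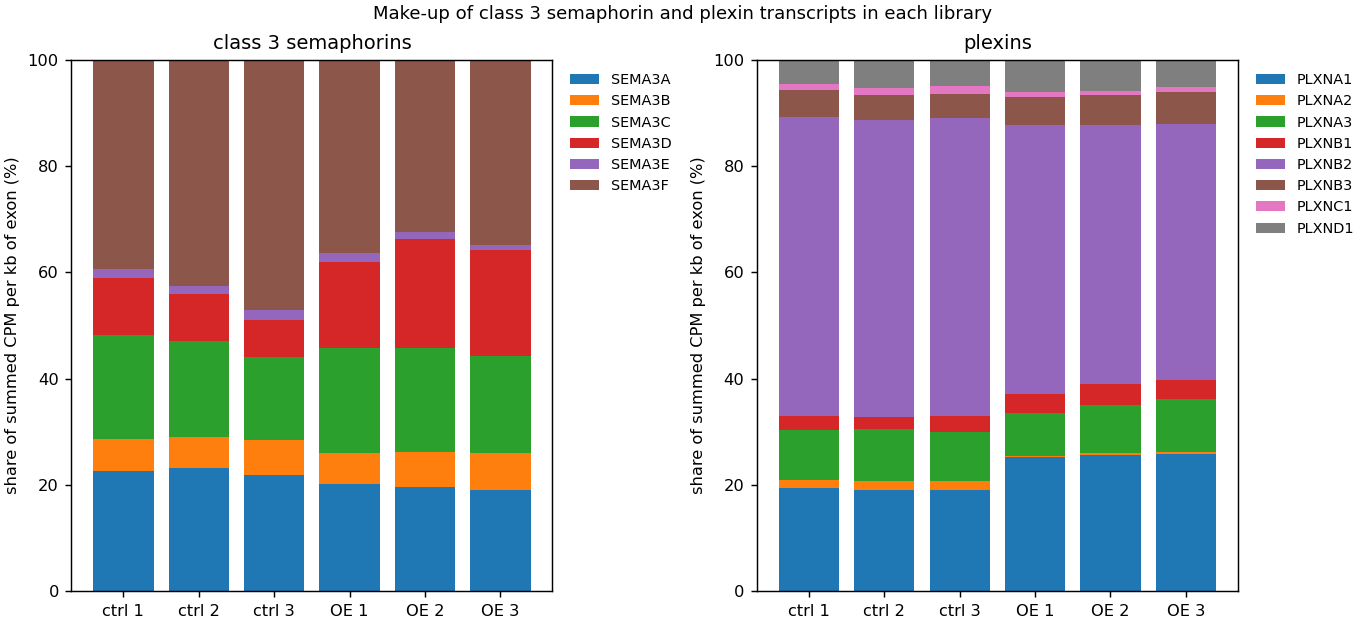
Share of each gene (vertical axis, percent) in the summed CPM per kb of exon of the 6 class 3 semaphorins (left) and the 8 plexins (right) in each library, with controls as ctrl and GCNT1 OE as OE. SEMA3D takes 6.90% to 10.8% of the class 3 sum in controls and 16.1% to 20.5% with GCNT1, and PLXNA1 takes 19.1% to 19.4% of the plexin sum in controls and 25.2% to 25.8% with GCNT1.

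Within the class 3 ligands the balance moved from SEMA3F and SEMA3A toward SEMA3D. Per kb of exon SEMA3F was 43.0% ± 3.92 (SD, n = 3) of the class 3 sum in controls and 34.5% ± 1.98 (SD, n = 3) with GCNT1. For SEMA3A these shares were 22.5% ± 0.683 and 19.6% ± 0.608, and for SEMA3D 8.83% ± 1.94 and 18.9% ± 2.40 (SD, n = 3 each). SEMA3C held 17.8% ± 1.97 and 19.2% ± 0.830 of the sum, a difference smaller than the spread of the controls.

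Among the plexins PLXNB2 held the largest share of the sum per kb in both groups, 56.2% ± 0.210 in controls and 49.3% ± 1.31 with GCNT1 (SD, n = 3 each). PLXNA1 came next, with 19.2% ± 0.153 in controls and 25.5% ± 0.311 with GCNT1. The share of PLXNA2 was 1.59% ± 0.0573 in controls and 0.335% ± 0.0396 with GCNT1. These shares do not overlap between the groups, and with the longest transcript as length PLXNA1 held 19.9% and 26.3%. Shares of a sum are tied to each other, so that a larger share of one gene lowers the others.

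Around the neuropilins and plexins, 66 genes were listed by role, of which 53 had a row. Past both limits 2 of the 53 were higher (FLT1 and FURIN) and 8 lower (KDR, ITGA1, DPYSL3, DPYSL4, ROCK2, FARP2, MICAL1 and SH3BP1), where all genes gave 8.28% and 11.1%. At the adjusted p alone 11 were higher and 20 lower, where all genes gave 28.3% and 29.3%, and the median log2 fold change was -0.04.

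**Figure D5:**
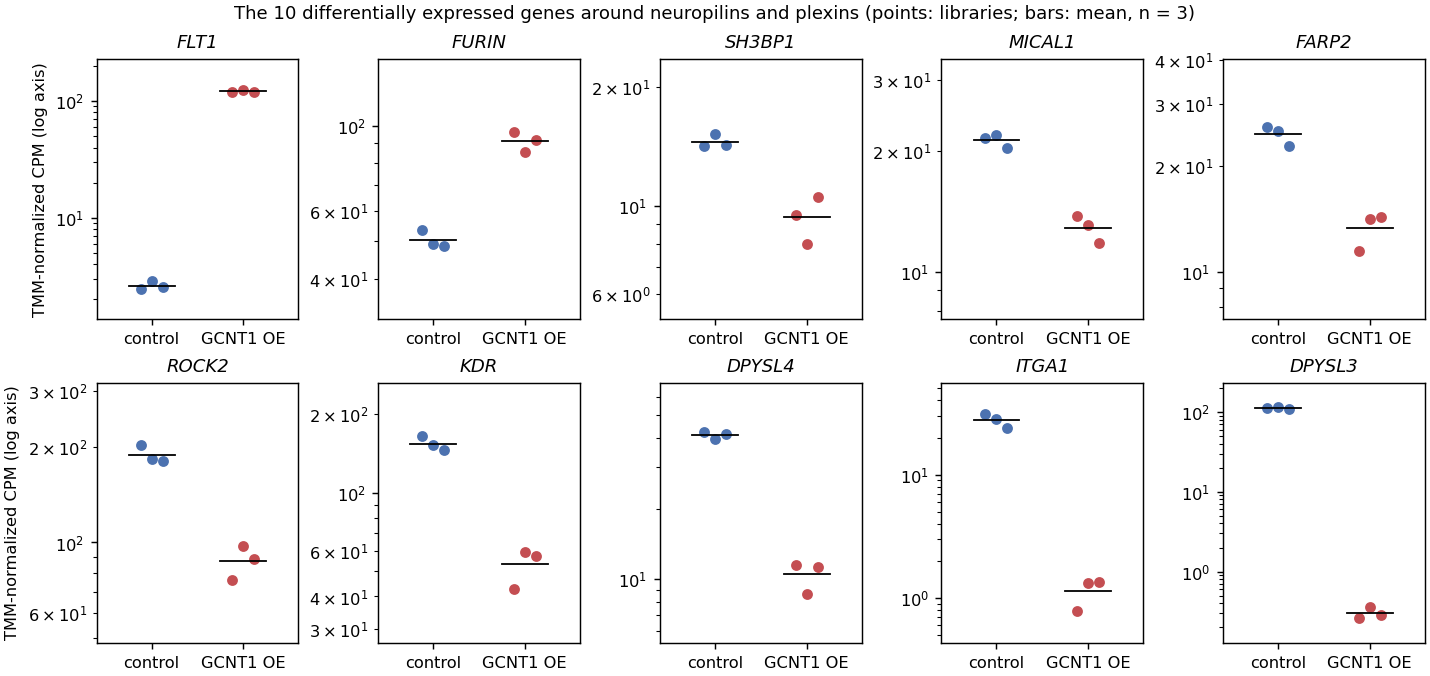
TMM-normalized CPM (vertical log axis) of the 10 genes around neuropilins and plexins that passed both limits, by library, with controls in blue, GCNT1 OE in red and bars for the mean (n = 3). FLT1 and FURIN lie higher with GCNT1, and the other 8 genes lie lower. The groups do not overlap, as is likely for genes chosen by their difference in these same libraries.

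The VEGF receptors that use neuropilins as partners changed in opposite directions. FLT1, or VEGF receptor 1, was counted 31, 36 and 30 times in the controls and 1382, 1723 and 1679 times with GCNT1, a 45.9-fold rise (log2 fold change 5.52, SE 0.09, edgeR adjusted p = 6.76e-14). KDR, or VEGF receptor 2, the main signalling receptor of VEGFA, was counted 2071, 1890 and 1728 times in the controls and 493, 817 and 806 times with GCNT1, a 2.89-fold fall (log2 fold change -1.53, SE 0.10, edgeR adjusted p = 2.63e-08). In each group the libraries stand clear of the other group for both genes. The median log2 fold change of the 50 flanking genes was 0.12 for FLT1 and 0.04 for KDR. Both receptors are best known from endothelium, and of that cell type's markers PECAM1 also rose, from 18, 24 and 23 counts to 59, 54 and 60, while CDH5, TEK and VWF had no row.

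The ligands of these receptors moved less. VEGFA, which binds NRP1, had 62.4 ± 4.61 CPM in controls and 63.5 ± 3.76 CPM with GCNT1 (SD, n = 3 each, log2 fold change 0.03, 95% interval -0.12 to 0.17, edgeR adjusted p = 0.763). VEGFC, a ligand of NRP2, rose (log2 fold change 0.37, edgeR adjusted p = 8.48e-05), and VEGFB, a ligand of FLT1, fell (log2 fold change -0.42, edgeR adjusted p = 7.14e-05). PGF, another ligand of FLT1, was counted 7 to 24 times per library and did not pass the test. VEGFD and FLT4 had no row.

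Of 12 listed co-receptors and other semaphorin receptors 6 had a row, and L1CAM, CHL1, NRCAM, CD72, TREM2 and TYROBP had none. MET, which also has a sema domain and pairs with B-type plexins, had 780 ± 43.8 CPM in controls and 801 ± 73.4 CPM with GCNT1 (SD, n = 3 each, edgeR adjusted p = 0.626). Its relative MST1R had a log2 fold change of -0.04 (edgeR adjusted p = 0.639). ITGA1, which joins ITGB1 in the integrin that SEMA7A binds, fell from 389, 355 and 280 counts to 9, 18 and 19 (log2 fold change -4.56, SE 0.18, edgeR adjusted p = 2.22e-10). ITGA1 lies on chromosome 5 among genes with a median log2 fold change of -0.57, and PELO overlaps it on the same strand. PTK7, a receptor-like partner of plexins, fell by 0.34 on the log2 scale (edgeR adjusted p = 0.000148).

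Of the 5 proteases with a row that cut semaphorins or neuropilins, 2 were higher and 3 lower at the adjusted p, where all genes gave 28.3% and 29.3%. FURIN, which cleaves class 3 semaphorins at basic sites and lies on the same chromosome as SEMA4B, rose 1.80-fold, from 53.6, 49.3 and 48.6 CPM to 96.0, 85.6 and 91.5 CPM (log2 fold change 0.85, SE 0.06, edgeR adjusted p = 1.54e-07). MMP14, which releases SEMA4D from the membrane, rose by a log2 fold change of 0.36 (edgeR adjusted p = 7.62e-05). ADAM10 (-0.25), ADAM17 (-0.34) and PCSK7 (-0.21) had lower levels on the log2 scale, each past the edgeR test, although PCSK7 did not pass without GCNT1 OE replicate 3 (adjusted p = 0.0505). PCSK5 and PCSK6 had no row. The median of the 50 flanking genes was 0.28 for FURIN, -0.14 for MMP14, -0.22 for ADAM10, -0.50 for ADAM17 and -0.26 for PCSK7. The part of those neighbourhoods in these changes was not tested.

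Downstream of the receptors 36 of 39 listed effectors had a row, of which 7 were higher and 13 lower at the adjusted p, and 6 passed the fold limit, all of them lower. The shares over all genes were 28.3% higher and 29.3% lower at the adjusted p, and 11.1% lower past the fold limit. DPYSL3 and DPYSL4 belong to the CRMP family, which carries SEMA3A signals to the microtubules. DPYSL4 fell from 41.1 ± 1.54 to 10.47 ± 1.57 CPM (SD, n = 3 each, log2 fold change -1.98, edgeR adjusted p = 2.42e-09), and DPYSL3 from 112 ± 2.37 CPM to 3, 5 and 4 counts per library (edgeR adjusted p = 2.40e-14). DPYSL2, the best known of the family, fell by 0.39 on the log2 scale (edgeR adjusted p = 3.26e-05). All 3 CRMP genes with a row were thus lower.

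ROCK2, a kinase that acts below RhoA, fell 2.15-fold (log2 fold change -1.11, SE 0.08, edgeR adjusted p = 8.41e-08), whereas ROCK1 had a log2 fold change of 0.10 (95% interval -0.08 to 0.29, edgeR adjusted p = 0.320). FARP2, an exchange factor used by A-type plexins, had a log2 fold change of -0.87 (SE 0.10, edgeR adjusted p = 6.33e-06). MICAL1, an enzyme that oxidises actin below the plexins, had -0.73 (SE 0.09, edgeR adjusted p = 1.35e-05). SH3BP1, a GTPase-activating protein for Rac, had -0.64 (SE 0.11, edgeR adjusted p = 0.000285), and fell short of the fold limit without GCNT1 OE replicate 2 (-0.52) and with library size alone (-0.58). ROCK2 and FARP2 lie on chromosome 2 among genes with median log2 fold changes of -0.50 and -0.60, and the part of those neighbourhoods in the falls was not tested.

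With all 6 libraries and TMM factors the 7 effectors with higher levels stayed inside the fold limit. LIMK1, the kinase that inactivates cofilin, rose by a log2 fold change of 0.57 (SE 0.06, edgeR adjusted p = 2.24e-06) and RHOD by 0.54 (SE 0.10, edgeR adjusted p = 0.000448), each just inside the fold limit. With library size in place of TMM both were past it, at 0.63 for LIMK1 and 0.60 for RHOD, and so was LIMK1 without control replicate 3 (0.59) or GCNT1 OE replicate 2 (0.61) and RHOD without control replicate 3 (0.61), GCNT1 OE replicate 2 (0.60) or GCNT1 OE replicate 3 (0.61). RAC1 (0.38), PIP5K1C (0.36), RRAS2 (0.25), ARHGEF11 (0.23) and GSK3B (0.18) also rose on the log2 scale, and GSK3B did not pass without control replicate 3 (adjusted p = 0.0548) or GCNT1 OE replicate 3 (adjusted p = 0.0789). MRAS had a log2 fold change of -0.55 and passed the fold limit without GCNT1 OE replicate 2 (-0.60). Also lower at the edgeR adjusted p, inside the fold limit, were ARHGEF12 (-0.43), TLN1 (-0.38), ARF6 (-0.37), RRAS (-0.34) and FLNA (-0.17). Their flanking genes had medians of -0.29, 0.009, -0.12, 0.02 and 0.16 in the same order. RHOA (0.04), CFL1 (-0.05) and GIPC1 (0.17), which binds the tail of NRP1, did not pass the edgeR test. Other annotated genes overlap PLXNA2, SEMA3F, SEMA4G, SEMA7A, KDR, FARP2, SH3BP1, MICAL1 and DPYSL3, in part on the same strand, so that reads could be shared with them.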

How the data were processed

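The 6 libraries are RNA of 3 control and 3 GCNT1 OE PC3 lines. The authors prepared stranded mRNA libraries, used Cutadapt for trimming, HISAT2 for mapping to hg38 and featureCounts for quantification, and deposited raw counts by Entrez identifier. Annotation, strand setting and low-count rule are not given in the sources used here.

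Counts were tested in R 4.3.3 with edgeR 4.0.16 (filterByExpr, which removed 0 genes, TMM, quasi-likelihood fit of group, Benjamini-Hochberg adjustment over 12703 genes). A call needed an adjusted p under 0.05 and a log2 change of at least 0.58 either way, the thresholds of the study, and the adjusted p alone was added as a rule after seeing the data. Intervals of log2 fold changes are 95%. Libraries of a group differed beyond sampling noise (chi-square per degree of freedom 1.65 to 5.57). Identifiers were matched to RefSeq symbols and positions of GRCh38.p14 (12661 of 12703 genes), with exon lengths and overlapping genes from GENCODE 44. Flanking genes are 50 analysed genes of the chromosome, 25 on each side where it allows. Named were all members, the called genes of the other lists and GCNT1; further genes were chosen after their values were seen. A marker list is not reported here. Members and lists were chosen with earlier results of these data known. The fitting steps were checked on simulated counts. Alternatives were no filter, 10 counts in every library, scaling by RLE or by library size, DESeq2 1.42.0, limma-voom (limma 3.58.1), glmTreat, a replicate block and leaving out each library.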

Additional observations from a re-analysis of the deposited data

How the results depend on the processing

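Leaving out single libraries gave 1 to 2 called members, the second being SEMA3E without GCNT1 OE replicate 1. With at least 10 counts in every library 0 members were called by edgeR, because that filter removes SEMA5A, while limma-voom and DESeq2 without it called 1 each. With the filter 3 members were higher and 4 lower at the adjusted p alone. The single test against the fold limit (glmTreat) called 1392 genes in place of 2457, and 1 in place of 3 of the other family genes, PLXNA2. It called 8 in place of 10 pathway genes, without MICAL1 (adjusted p = 0.139) and SH3BP1 (adjusted p = 0.758). SEMA3C reversed when control replicate 1 was left out, and over the left-out libraries its log2 fold change ran from -0.16 to 0.0125. At the adjusted p alone, leaving out a library gave 2 to 3 higher and 4 to 5 lower members. RLE factors and library size alone did not turn the direction of any member, and the latter moved the median of all genes to 0.06. With library size alone 1283 genes were called higher and 1230 lower, and 4290 were higher and 3144 lower at the adjusted p, with 4 pathway genes called higher and 7 lower.

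The replicate numbers did not pair the libraries, since the deviations of same-numbered libraries correlated at -0.27, -0.0024 and -0.11. With the replicate block 2423 genes were called, with 1 member, 3 other family genes and 10 pathway genes, while SEMA3E (adjusted p = 0.0547), NRP2 (adjusted p = 0.0794) and SEMA6C (adjusted p = 0.0591) were not past edgeR's adjusted p. Among the members SEMA3E, NRP2 and SEMA5A had the lowest counts, at most 141 in any library.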
